A study of Mus musculus with 2 samples.

Results

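The AP-1 and BATF transcription factors were followed in regulatory T (Treg) cells of injured mouse muscle. Members were the 10 genes of the deposited table whose symbol was Batf, Batf3, Jun, Junb, Jund, Fos, Fosb, Fosl1, Fosl2 or Atf3, and all 10 were among its 23337 rows. RNA was measured in 2 libraries, 1 per treatment. The IL-33 library came from mice whose tibialis anterior, quadricep and gastrocnemius muscles received 0.3 ug of recombinant IL-33 together with cardiotoxin, a snake venom protein used to destroy muscle fibres. The PBS library came from mice given cardiotoxin and PBS, so both groups carried the injury and no uninjured muscle was used here. All mice were 8-week-old males of the Foxp3-IRES-GFP/C57BL/6 background, in which a green fluorescent reporter follows Foxp3. Muscles were taken on day 4, and each library was made from 5000 Treg cells that had been sorted a second time. The labels do not say how many mice gave cells to a library. With 1 library per group there was no replicate, no test and no p-value. Values "with IL-33" and "with PBS" are those of these libraries, "higher" and "lower" compare them in that order, and intervals cover counting error only. Foxp3, the defining Treg gene, was thinly counted, with 40 counts with IL-33 and 1 count with PBS, while the Treg genes Ctla4 (6186 CPM with IL-33 and 6246 CPM with PBS) and Ikzf2 (1681 CPM with IL-33 and 1925 CPM with PBS) stood high. CPM is the count divided by the library total and scaled to 1000000.

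AP-1 factors are basic leucine zipper (bZIP) proteins that bind DNA only as pairs. Jun proteins pair with each other or with Fos proteins, and Fos proteins need a Jun partner. BATF and BATF3 pair with Jun proteins and lack the activation domains of Fos, and with IRF4 or IRF8 they bind composite sites. Most Fos and Jun genes are induced within minutes of stimulation, including the stress of tissue digestion. In mouse Treg cells, BATF is needed for the tissue population that carries the IL-33 receptor.

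Of the 10 members, 9 had a promoter in the RefSeq table (GRCm38.p6). The last 200 bases before the RefSeq start were searched on both strands for the AP-1 site TGACTCA, the cyclic AMP response element TGACGTCA, its half-site TGACG (also contained in the full element), the AP-1-like site TGACATCA and the TATA box TATAAA. Shown here are Jun, the member past 2-fold in the results that follow, its family member Junb, Fos, the member with the highest level per length, and Batf. Capitals mark the matches.
Jun, chr4:95052223-95052422, minus strand: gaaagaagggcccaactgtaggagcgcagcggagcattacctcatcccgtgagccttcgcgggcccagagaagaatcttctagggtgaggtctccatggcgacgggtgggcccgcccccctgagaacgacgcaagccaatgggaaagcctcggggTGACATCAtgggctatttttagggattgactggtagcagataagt
Junb, chr8:84978749-84978948, minus strand: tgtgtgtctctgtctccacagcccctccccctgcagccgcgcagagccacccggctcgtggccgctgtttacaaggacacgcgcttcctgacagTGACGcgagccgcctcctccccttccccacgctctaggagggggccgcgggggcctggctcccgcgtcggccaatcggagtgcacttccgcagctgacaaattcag
Fos, chr12:85473690-85473889, plus strand: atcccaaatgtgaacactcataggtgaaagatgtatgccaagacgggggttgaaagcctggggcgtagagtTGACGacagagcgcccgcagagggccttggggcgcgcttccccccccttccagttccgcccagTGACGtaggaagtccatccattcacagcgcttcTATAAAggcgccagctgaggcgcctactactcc
Batf, chr12:85686520-85686719, plus strand: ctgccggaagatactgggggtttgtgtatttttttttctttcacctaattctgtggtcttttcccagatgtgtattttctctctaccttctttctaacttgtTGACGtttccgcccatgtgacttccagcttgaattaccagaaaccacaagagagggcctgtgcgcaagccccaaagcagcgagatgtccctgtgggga
Of the 9 member windows, that of Jun alone held TGACATCA, from 45 to 38 bases before its start, a match found in 2.66% of all 32851 promoter windows. The half-site TGACG was in 5 members (Batf, Junb, Fos, Fosb and Atf3), against 15.7% of all windows. Fos held it from 129 and from 66 bases before the start, followed by a TATA box from 33 bases before the start. TATAAA was in 9.96% of all windows. None of the 9 member windows held TGACTCA or TGACGTCA, which were in 3.66% and 1.47% of all windows. Fosl1 had no RefSeq promoter and was not searched. RefSeq starts also differ from the GENCODE positions given below. The Jund window (70697539 to 70697738) ends before the GENCODE gene, and those of Batf3, Fosl2 and Atf3 lie inside theirs. The Batf window printed above and that of Fosb lie partly inside theirs. Sites near other starts of the members were not searched. These matches describe letters only.

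Some members share a chromosome. Fos (chromosome 12, 85473890 to 85477273) and Batf (85686669 to 85709087) are on the same strand with a gap of 209 kb, and Jdp2, a bZIP repressor that pairs with Jun, lies between them. Batf3 (chromosome 1, 191097847 to 191108945) ends 61.4 kb from Atf3 (191170296 to 191218039), on the opposite strand. Jun is on chromosome 4 (95049034 to 95052222), and Junb (84974484 to 84978718) and Jund (70698949 to 70700616) are on chromosome 8. Fosb is on chromosome 7 (19302696 to 19310051), Fosl2 on chromosome 5 (32135801 to 32157842) and Fosl1 on chromosome 19 (5447547 to 5455946). Positions are those of GENCODE M21 on GRCm38.

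Jun was the member that differed by 2-fold or more between the libraries. The members' summed level was 1645 CPM with IL-33 and 2094 CPM with PBS, on 6712 counts with IL-33 and 3296 with PBS, a ratio of 0.785 (95% counting interval 0.753 to 0.819). Fos and Fosl2 made up most of these counts. Of the 10 members, 8 had at least 5 CPM in a library, and 6 of these were below 0 on the log2 scale of CPM plus a pseudocount of 1. Junb and Jund were above 0. The median log2 fold of the 8 was -0.46, against -0.08 over all 9005 genes at that level, of which 54.4% were below 0. Jun alone was 2-fold or more lower and 0 members were 2-fold or more higher. Among all 9005 genes 16.3% were 2-fold or more lower and 15.5% were 2-fold or more higher, so 1 of 8 is near the background. Scaling by trimmed mean of M-values (TMM) moved the median of all genes by 0.12 to 0.037. It moved the members' median to -0.35, still below that of all genes, and no member over 5 CPM changed sign under the scalings tried. In bulk RNA, fewer cells with a transcript and less transcript per cell cannot be told apart.

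**Figure D1:**
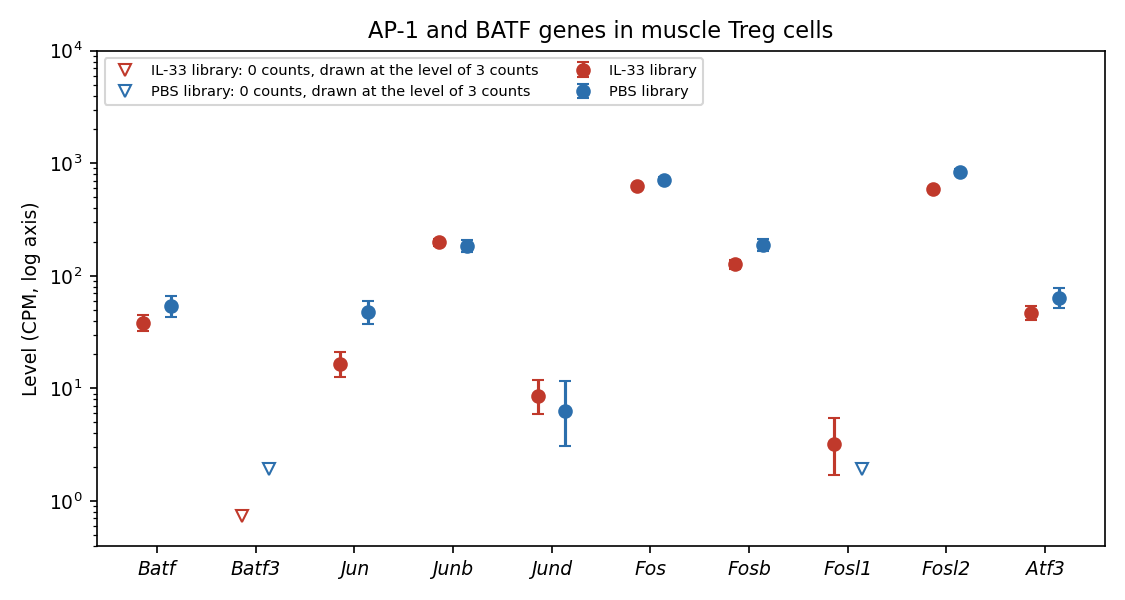
Level of each member in the IL-33 library (left point of each pair) and in the PBS library (right point), in CPM on a log axis, with exact Poisson 95% intervals. Open triangles stand for 0 counts and are drawn at the level of 3 counts; Jun shows the widest gap among the members counted in both libraries, with 16.4 CPM with IL-33 and 47.7 CPM with PBS.

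Batf, which encodes the AP-1 factor of tissue Treg cells named above, had 156 counts (38.2 CPM) with IL-33 and 85 counts (54.0 CPM) with PBS. The ratio was 0.708 (0.540 to 0.933), a log2 fold of -0.49. Batf3, known for its role in conventional dendritic cells, had 0 counts in both libraries. A count of 0 allows up to 3 counts, which is 0.735 CPM with IL-33 and 1.91 CPM with PBS, and the upper limit of the exact Poisson interval is 0.904 CPM with IL-33 and 2.34 CPM with PBS. Irf4, which encodes a partner of BATF at composite sites, was at 199 CPM with IL-33 and 279 CPM with PBS, a ratio of 0.713 (0.634 to 0.803). Relative to Irf4, Batf differed by less than counting error: there were 0.192 Batf counts per Irf4 count with IL-33 (0.161 to 0.228) and 0.194 with PBS (0.152 to 0.245). That ratio within a library does not depend on scaling. Irf8, the gene of the other partner named above, did not go the way of Batf. It had 202 counts (49.5 CPM) with IL-33 and 60 counts (38.1 CPM) with PBS, a ratio of 1.30 (0.969 to 1.76) that held 1.

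Jun, the founding member of the family, had 67 counts (16.4 CPM) with IL-33 and 75 counts (47.7 CPM) with PBS, a ratio of 0.345 (0.244 to 0.485) and a log2 fold of -1.48. The deeper library thus held fewer counts of it. Among the 3511 genes averaging 10 to 50 CPM, where Jun lies, 19.5% were 2-fold or more lower. Junb, a Jun protein with weaker activation and a partner of BATF in T cells, had 807 counts (198 CPM) with IL-33 and 290 counts (184 CPM) with PBS. Its ratio of 1.07 (0.937 to 1.23) held 1. Jund, the Jun gene known for steady expression, had 35 counts (8.58 CPM) with IL-33 and 10 counts (6.35 CPM) with PBS. Its ratio of 1.35 had a wide interval, from 0.654 to 3.06.

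The make-up of the Jun family differed more than its sum. Its summed level was 223 CPM with IL-33 and 238 CPM with PBS, a ratio of 0.935 (0.828 to 1.06). Jun took 7.37% of the 909 Jun family counts with IL-33 (exact binomial interval 5.76 to 9.27) and 20% of the 375 with PBS (16.1 to 24.4). Junb took 88.8% with IL-33 (86.5 to 90.8) and 77.3% with PBS (72.8 to 81.5). For both genes the intervals of the libraries did not overlap, and shares within a library do not depend on scaling between libraries. Shares of a family add up to the whole, so those of Jun and Junb are tied and are not separate differences. There were 0.0830 Jun counts per Junb count with IL-33 (0.0637 to 0.107) and 0.259 with PBS (0.198 to 0.334). Jund took 3.85% with IL-33 (2.70 to 5.31) and 2.67% with PBS (1.29 to 4.85), with overlapping intervals. Per kilobase of exon, Jun took 5.35% of the family with IL-33 and 15.1% with PBS, and Junb was the leading gene in both.

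**Figure D2:**
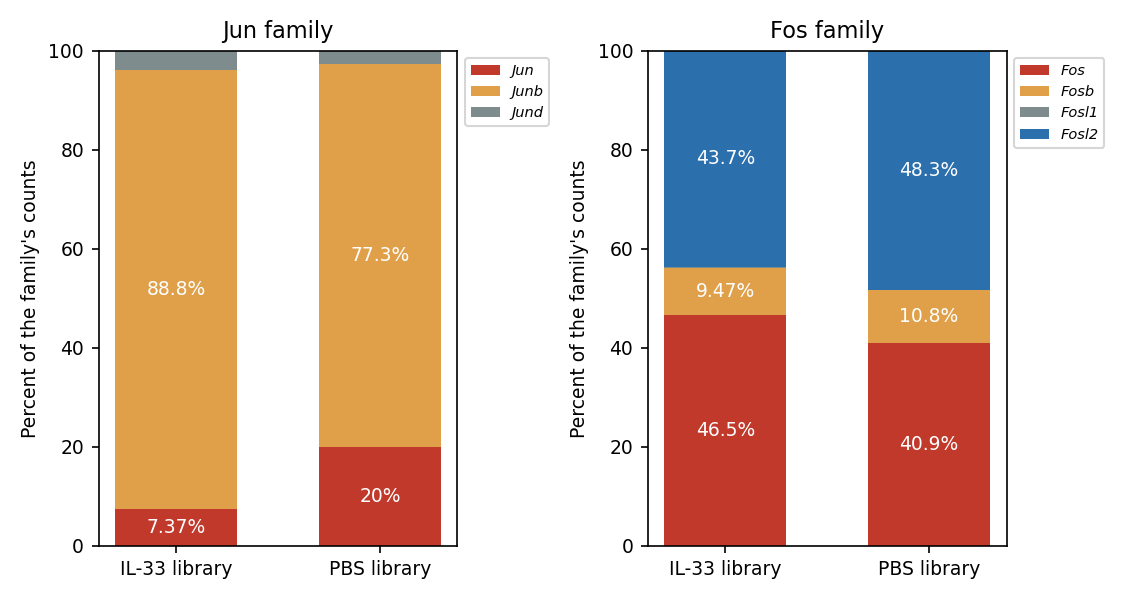
Percent of the counts of the Jun family (left panel) and the Fos family (right panel) taken by each gene, in the IL-33 library (left bar) and in the PBS library (right bar). Jun took 7.37% of its family with IL-33 and 20% with PBS, while Fos took 46.5% of its family with IL-33 and 40.9% with PBS.

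No Fos family gene at 5 CPM or more reached 2-fold. Together the family had 1337 CPM with IL-33 and 1739 CPM with PBS, a ratio of 0.769 (0.735 to 0.806). Fos, the immediate early partner of Jun, had 2540 counts (622 CPM) with IL-33 and 1119 counts (711 CPM) with PBS. Its ratio was 0.875 (0.816 to 0.940) and its log2 fold -0.19. With TMM scaling that log2 fold was -0.071, and the interval by library totals did not include that value, so the size of the difference rests on the scaling.

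Fosl2 encodes FRA2, a Fos-related protein. It had 2387 counts (585 CPM) with IL-33 and 1321 counts (839 CPM) with PBS, a ratio of 0.697 (0.651 to 0.746) and a log2 fold of -0.52. With TMM scaling its log2 fold was -0.40. Fosb, which also gives a short form that lacks the activation domain, had 517 counts (127 CPM) with IL-33 and 296 counts (188 CPM) with PBS. Its ratio was 0.674 (0.583 to 0.780), a log2 fold of -0.57. Neither reached 2-fold. Where Fosl2 and Fos lie (990 genes averaging 200 CPM or more), 1.01% of genes were 2-fold or more lower, and where Fosb lies (2576 genes averaging 50 to 200 CPM), 6.48% were.

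Within the Fos family, Fos took 46.5% of 5457 counts with IL-33 (45.2 to 47.9) and 40.9% of 2736 counts with PBS (39.0 to 42.8). Fosl2 took 43.7% with IL-33 (42.4 to 45.1) and 48.3% with PBS (46.4 to 50.2), so the order of these genes by counts differed between the libraries. There were 0.940 Fosl2 counts per Fos count with IL-33 (0.888 to 0.994) and 1.18 with PBS (1.09 to 1.28). Fosb took 9.47% with IL-33 and 10.8% with PBS, with overlapping intervals (8.71 to 10.3 and 9.68 to 12.04). Per kilobase of exon, Fos led in both, with 76.3% of the family with IL-33 and 72.1% with PBS.

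Fosl1, which encodes FRA1, was near the limit of detection. It had 13 counts (3.19 CPM) with IL-33 and 0 counts with PBS, at least 1.67-fold higher against the level of 3 counts with PBS; with the counting error of the 13 counts included, the exact interval of the ratio starts at 1.18. Of its 2033 exon bases, 1163 are shared with Ccdc85b on the opposite strand. Ccdc85b had 0 counts with IL-33 and 21 counts with PBS. The labels do not say how strand was treated in counting, so it cannot be told whether reads in the shared bases were given to the right gene.

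Atf3, a stress-induced factor of the ATF family that pairs with Jun proteins, had 190 counts (46.6 CPM) with IL-33 and 100 counts (63.5 CPM) with PBS. Its ratio was 0.733 (0.572 to 0.943) and its log2 fold -0.44. Batf, Atf3, Fosb and Fosl2 thus lay close together, between -0.44 and -0.57.

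Overlaps with opposite-strand genes touch other members as well. Junb shares 173 of 2301 exon bases with Prdx2, a peroxidase gene that had 158 CPM with IL-33 and 80.7 CPM with PBS. Jun shares 232 of 3189 with the antisense RNA Junos, and Jund shares 877 of 1668 with the antisense RNA Gm11175. The part of these overlaps in the results was not tested.

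**Figure D3:**
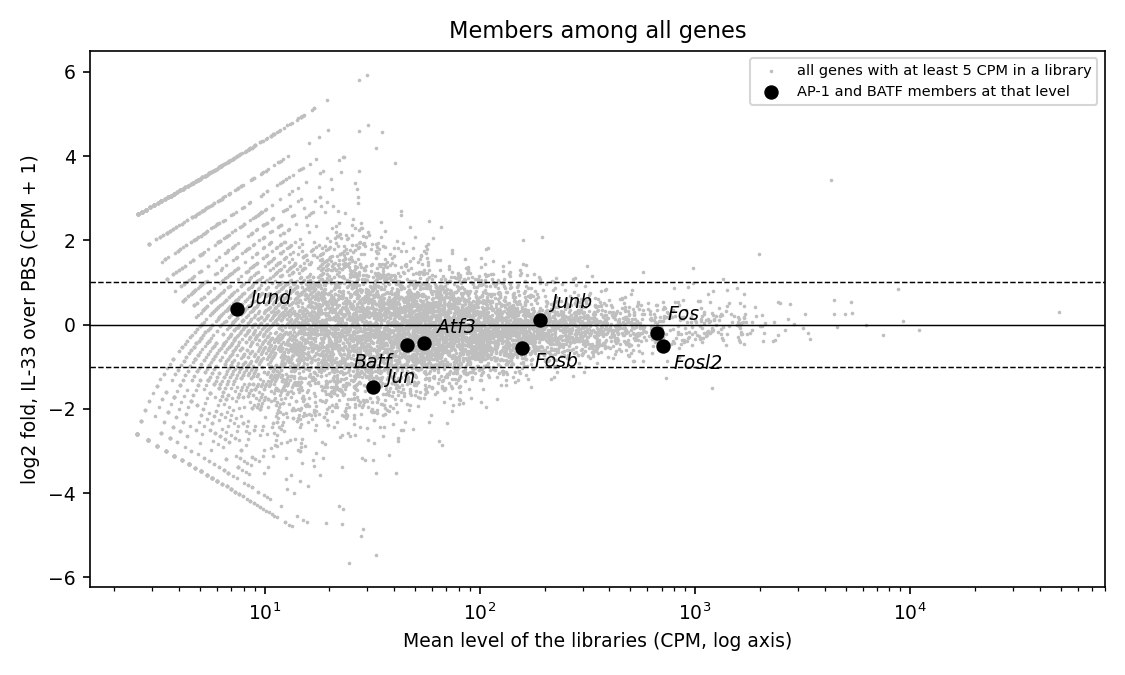
Log2 fold of the IL-33 library over the PBS library (CPM plus 1) against the mean level of the libraries in CPM (log axis), for the 9005 genes that reached 5 CPM in either library (grey) and the 8 members among them (black). Dashed lines mark 2-fold; Jun, at -1.48, is the member past them, and the scatter narrows as the level rises.

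Per kilobase of exon, Fos had the highest level of the members in both libraries, at 265 CPM per kilobase with IL-33 and 302 with PBS. Junb followed at 85.9 with IL-33 and 80.1 with PBS. Fosl2, at 60.4 with IL-33, was below Junb there, while at 86.7 with PBS its interval (82.1 to 91.5) overlapped that of Junb (71.1 to 89.9). Batf came next, at 27.2 CPM per kilobase with IL-33 and 38.4 with PBS. Atf3 was at 21.6 and Fosb at 20.3 with IL-33, and at 29.5 and 30.1 with PBS, and in each library the intervals of Batf, Atf3 and Fosb overlapped between neighbours in this order. Jun and Jund were equal within counting error with IL-33, at 5.15 and 5.14 CPM per kilobase. In the PBS library Jun was at 14.9 (11.8 to 18.7) and Jund at 3.81 (1.83 to 7.01), so the intervals did not overlap there.

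Among 42 other bZIP genes, 27 had at least 5 CPM in a library. Of these 27, 3 were 2-fold or more higher and 5 lower, against 15.5% of all genes higher and 16.3% lower. Their median log2 fold was 0.03 (0.19 with TMM scaling). Of these, 14 were above 0 and 13 below. Maff, a small MAF protein without an activation domain, was at 27.4 CPM with IL-33 and 84.5 CPM with PBS, a ratio of 0.325 (0.250 to 0.421), close to that of Jun. Maf, a factor of IL-10-producing Treg cells, was at 651 CPM with IL-33 and 899 CPM with PBS, a ratio of 0.724 (0.679 to 0.773). Crem, the cyclic AMP response factor, was at 766 CPM with IL-33 and 663 CPM with PBS, a ratio of 1.15 (1.08 to 1.24).

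Creb1 was at 242 CPM with IL-33 and 296 CPM with PBS, and Atf4, the amino acid stress factor, was at 156 CPM with IL-33 and 190 CPM with PBS, with ratios of 0.818 (0.732 to 0.915) and 0.820 (0.714 to 0.944). Atf1 had a ratio of 1.46 (1.22 to 1.77), Atf2, which pairs with Jun, 1.44 (1.11 to 1.88), and Nfil3, a bZIP repressor, 1.66 (1.29 to 2.15). Ratios of the others with at least 50 CPM in a library ran from 0.604 for Crebzf to 1.39 for Creb3. Between them lay Cebpg, Atf6, Cebpb, Xbp1 and Nfe2l2. Jdp2, between Fos and Batf, had 23 counts (5.64 CPM) with IL-33 and 3 counts (1.91 CPM) with PBS, a ratio of 2.96 (0.893 to 15.4) that held 1.

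Upstream, the MAP kinase cascade had 27 of 33 genes at that level, with 1 higher and 2 lower at 2-fold. Of all genes at that level, 15.5% were higher and 16.3% lower. The median of the cascade was -0.17 (-0.05 with TMM scaling). Among its most abundant genes were Tab2, an adaptor of the kinase TAK1, with a ratio of 0.668 (0.613 to 0.729), and Map2k3, a p38 activator, at 0.756 (0.686 to 0.834). Regulators of the Fos and Jun promoters had 11 of 14 genes at that level, 0 higher and 2 lower, beside the same shares of all genes. Those lower were thinly counted: Elk4 had 6 counts with IL-33 and 14 with PBS, and Mef2c 0 with IL-33 and 16 with PBS. Both were named after their values were seen. The median of the list was -0.33. With TMM scaling it was -0.16. Crtc3, a CREB coactivator, was at 71.6 CPM with IL-33 and 132 CPM with PBS, a ratio of 0.544 (0.454 to 0.653). Crebbp, Ep300 and Elk3 had ratios of 0.796, 0.854 and 0.986.

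Genes of AP-1 protein turnover had 1 of 11 higher (Ndfip2) and 1 lower (Det1), against 15.5% of all genes higher and 16.3% lower. Their median was 0.08 (0.20 with TMM scaling). Trib1, an adaptor of the ubiquitin ligase COP1, was at 139 CPM with IL-33 and 86.4 CPM with PBS, a ratio of 1.61 (1.34 to 1.96). Ddb1, Fbxw7 and Ndfip1, which activates Itch, a ubiquitin ligase for JUNB, had ratios of 0.838, 1.07 and 1.06. Ndfip2, a related activator named for its call, had a ratio of 2.15 (1.66 to 2.82).

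The partners at composite sites were within 2-fold in 11 of 11 cases, with a median of -0.23 (-0.11 with TMM scaling). All but Irf8 averaged 50 CPM or more. Of all genes averaging 50 to 200 CPM, 6.48% were 2-fold or more lower, and 1.01% of those at 200 CPM or more. Of the partners, 9 were below 0 and 2 above, Ets2 with a ratio of 1.53 (1.32 to 1.78) and Irf8 with 1.30 (0.969 to 1.76). Both were named after their values were seen. Ets1, an ETS factor that binds beside AP-1, was at 2064 CPM with IL-33 and 2660 CPM with PBS, a ratio of 0.776 (0.748 to 0.805). Stat3 had a ratio of 0.893 (0.833 to 0.957) and Nfatc3 one of 0.864 (0.759 to 0.985).

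Among genes linked to BATF in tissue Treg cells, 15 had at least 5 CPM in a library. Of these, 2 were 2-fold or more higher and 0 lower, against 15.5% of all genes higher and 16.3% lower. Those higher were thinly counted with PBS: Pparg had 122 counts with IL-33 and 0 with PBS, and Tigit 47 with IL-33 and 3 with PBS. The median log2 fold was -0.01, or 0.11 with TMM scaling. The most abundant were Ctla4, at 6186 CPM with IL-33 and 6246 CPM with PBS, Icos, with a ratio of 0.980 (0.940 to 1.02), Tnfrsf9, at 1.05 (0.983 to 1.11), and Tnfrsf4, which encodes the costimulator OX40, at 0.782 (0.736 to 0.831). Of the 15 genes, 7 were above 0 on the log2 scale and 8 below. The receptor gene for IL-33, Il1rl1, had a ratio of 1.44 (1.34 to 1.55), above 1 where Batf was below it. Klrg1 was at 1.55 (1.42 to 1.71) and Areg at 1.49 (1.33 to 1.68). Prdm1, at 0.679 (0.600 to 0.770), Itgae, at 0.752 (0.693 to 0.817), and Gata3, at 0.795 (0.713 to 0.887), were below 1, as was Batf. None of these genes was past 2-fold, and all were named after their values were seen. Known AP-1 targets had 10 of 25 genes at that level, 2 higher and 2 lower, against 15.5% of all genes higher and 16.3% lower. The median of these targets was -0.13 (-0.01 with TMM scaling). Mmp9, a gelatinase, was at 62.5 CPM with IL-33 and 23.5 CPM with PBS, a ratio of 2.66 (1.88 to 3.86). Spp1, which encodes osteopontin, was at 12.3 CPM with IL-33 and 73.7 CPM with PBS, a ratio of 0.166 (0.117 to 0.233). The other calls were Hbegf, with 27 counts with IL-33 and 0 with PBS, and Ccl2, with 0 counts with IL-33 and 10 with PBS; these 3 were named after their values were seen. Il2ra was at 613 CPM with IL-33 and 851 CPM with PBS, while Vim and Cd44 had ratios of 0.942 and 0.947.

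Of the other immediate early and handling genes, 20 were at that level, with 5 lower and 1 higher at 2-fold, against 16.3% of all genes lower and 15.5% higher. With TMM scaling 3 were lower, against 1253 of all 9001 genes at that level. The median was -0.22, or -0.10 with TMM scaling. The most abundant, Nfkbia, Hsp90aa1, Zfp36l1 and Klf6, had ratios from 0.842 to 0.891. Those lower were Ier2, Ier5, Klf2 and the heat shock genes Hspa1a and Hspa1b, and the higher one was Myc, with a ratio of 2.34 (1.59 to 3.54). Dusp2, Nr4a2 and Ppp1r15a were also above 1, at 1.66, 1.66 and 1.38, while Egr1 and Zfp36 were below it, at 0.626 and 0.682. Of the 20 genes, 15 were below 0 on the log2 scale and 5 above, against 54.4% of all genes below 0. Hspa1a and Hspa1b, near-identical copies, had 0 counts and 1 count with IL-33, against 8 and 20 counts with PBS. All but the 4 most abundant were named after their values were seen, and the part of cell handling in the AP-1 values was not tested.

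**Figure D4:**
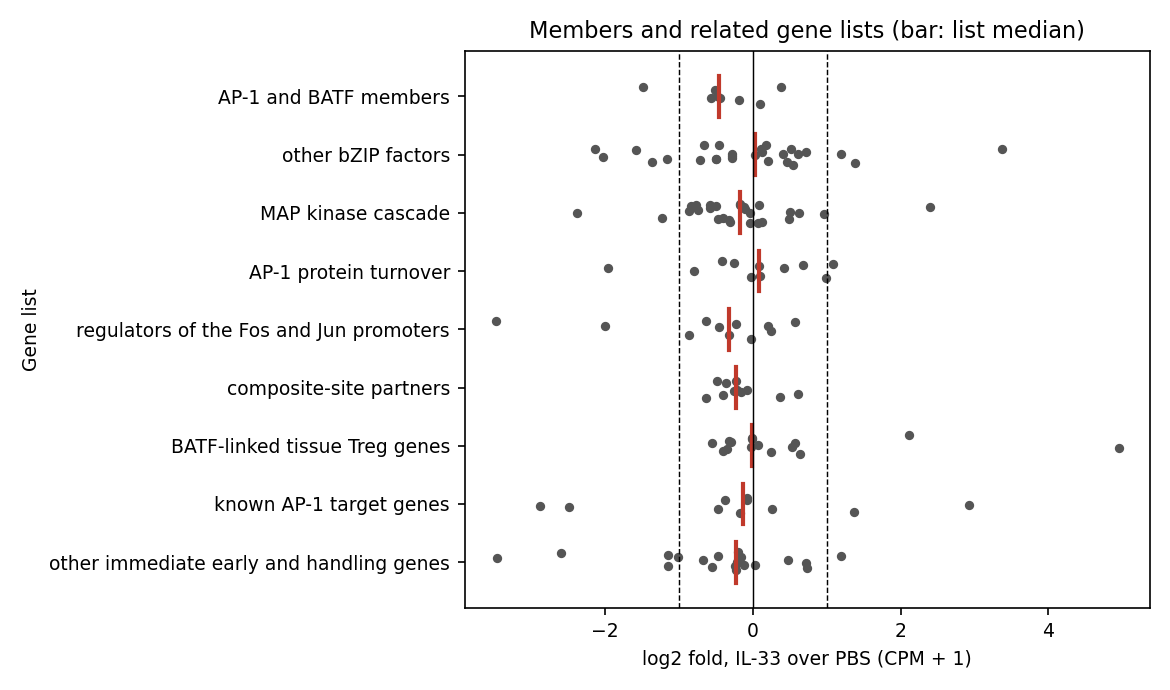
Log2 fold of the IL-33 library over the PBS library (CPM plus 1) for each gene that reached 5 CPM in either library, by gene list, with the list median as a red bar and dashed lines at 2-fold. The 8 AP-1 and BATF members have a median of -0.46, against 0.03 for the other bZIP factors.

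The libraries differed in depth and in thinly counted markers of other cells. The IL-33 library held 4080791 counts and the PBS library 1573707, so 1 count equals 0.245 CPM with IL-33 and 0.635 CPM with PBS. Treg and CD4 T markers summed to 11408 CPM with IL-33 and 11529 CPM with PBS. Of the 6 fibroblast markers, 3 were at 0 in both libraries, and the sum was 0 CPM with IL-33 and 66.1 CPM with PBS, from Col3a1 (0 counts with IL-33 and 78 with PBS), Dcn (0 with IL-33 and 24 with PBS) and Pdgfra. Dendritic cell markers summed to 23.3 CPM with IL-33 and 33.04 CPM with PBS, with 4 of 9 at 0 in both, Cd74 among them. Of these markers, Xcr1 had 42 counts with IL-33 and 12 with PBS, H2-Ab1 7 with IL-33 and 19 with PBS, Itgax 0 with IL-33 and 19 with PBS, and Siglech 28 with IL-33 and 2 with PBS, so they did not share a direction. Monocyte and macrophage markers summed to 2936 CPM with IL-33 and 2043 CPM with PBS, nearly all from Ccr2, which T cells also express, and the others did not share a direction: Lyz2 was at 19.1 CPM with IL-33 and 38.8 CPM with PBS, Itgam at 16.2 CPM with IL-33 and 7.63 CPM with PBS, and Mrc1 had 17 counts with IL-33 and 0 with PBS. With IL-33, markers of muscle (Acta1, Myh4) summed to 0.245 CPM, of neutrophils (Csf3r, with S100a8 at 0) to 4.41, of B cells (Cd79b) to 32.3, of CD8 T cells (Cd8b1, with Cd8a at 0) to 21.6, of endothelium (Pecam1, Cdh5) to 49.3 and of erythroid cells (Alas2, with Hba-a1 at 0) to 0. With PBS these sums were 2.54 CPM for muscle, 5.72 for neutrophils, 26.7 for B cells, 13.3 for CD8 T cells, 52.1 for endothelium and 8.90 for erythroid cells. The endothelial sums came mostly from Pecam1 (198 counts with IL-33 and 71 with PBS), while Cdh5 had 3 counts with IL-33 and 11 with PBS. The NK and innate lymphoid markers summed to 1092 CPM with IL-33 and 1252 CPM with PBS, nearly all from Il7r, and Il5 had 10 counts with IL-33 and 0 with PBS. Mast cell markers (Cpa3, Mcpt4) were at 0 in both. The part of these cells in the AP-1 values was not tested.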

How the data were processed

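The authors deposited raw counts per gene symbol for both libraries, as whole numbers. Per the submitters' processing notes, TopHat2 2.0.10, Cufflinks 2.2.1 and mm10 were used, with no role given; no source used here names the counting program or strand setting. Per the labels' protocols, poly(A) RNA was amplified as cDNA and cut by a transposon, with no molecular identifiers named. Both columns were matched to libraries by name, 0 were unused and 0 rows lacked a name.

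CPM were computed from library totals. Genes that reached 5 CPM in either library were compared as log2(CPM + 1), counted at 2-fold or more. Ratios carry exact conditional (Clopper-Pearson) 95% intervals, levels exact Poisson intervals and shares exact binomial ones. Reads amplified by PCR are not independent molecules, so intervals cover counting error only. The members and gene lists were chosen with earlier results of these data known. Of 262 symbols fixed, 257 were in the table. Genes named are the 10 members, Jdp2, other bZIP genes that reached 50 CPM, the 4 genes of highest mean CPM in each other list and 2 of each marker list; a few genes this rule takes are left out here, and any other gene was named after its values were seen. Exon lengths are unions over GENCODE M21 transcripts, and promoters are from RefSeq. The alternatives were 3 other scalings, 2 pseudocounts and 2 floors, and shares per exon length. Scripts were tested on simulated data. Python 3.11.15, numpy 2.4.6, pandas 2.3.3, scipy 1.17.1, matplotlib 3.10.9, R 4.3.3 and edgeR 4.0.16 (TMM factors only) were used.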

Additional observations from a re-analysis of the deposited data

How the results depend on the processing

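No paired analysis was possible because each group held 1 library. Over the alternatives, Jun ran from -1.51 to -1.30 (log2 fold) and was 2-fold lower in each, and the signs of the 8 members over 5 CPM did not change. Jund had no value at a floor of 20 CPM. With TMM and median-of-ratios scaling, Fos was -0.071 and -0.078 and Fosl2 -0.40 and -0.41. Without a floor 1 member, Fosl1, was 2-fold higher.

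Counts at 2-fold in the other lists were small and moved with the setting. Higher genes under TMM, under median-of-ratios and with the 50 highest genes left out of the total were 2 in the MAP kinase list and 2 in the turnover list, which also had 2 with a pseudocount of 0.5 CPM; leaving out those 50 genes gave 2 in the immediate early list. A pseudocount of 5 CPM left 1 higher and 3 lower bZIP genes. Without a floor, 3 MAP kinase and 3 immediate early genes were higher. At a floor of 20 CPM, higher genes were 0 for bZIP factors, 0 for MAP kinases, 1 for BATF-linked genes and 1 for AP-1 targets, and lower genes were 2 for bZIP factors, 0 for turnover, 0 for promoter regulators, 1 for AP-1 targets and 3 for immediate early genes. TMM and median-of-ratios scaling also left 3 lower immediate early genes. Over all genes, 1614 of 9001 were higher and 1253 lower with TMM, and 1598 of 9001 higher and 1270 lower with median-of-ratios scaling. Leaving out the 50 genes gave 1696 higher of 9312. Of 9005 genes, 1438 were higher with a pseudocount of 0.5 CPM. With 5 CPM, 1146 were higher and 1068 lower. Without a floor 2133 of 11529 were higher. At a floor of 20 CPM, 595 of 6206 were higher and 737 lower.

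Per kilobase of exon, shares in the IL-33 library were 5.35% for Jun, 5.34% for Jund, 76.3% for Fos, 5.85% for Fosb, 0.452% for Fosl1 and 17.4% for Fosl2, and in the PBS library 15.1% for Jun, 72.1% for Fos, 7.19% for Fosb and 20.7% for Fosl2. This follows from exon length; what set the other changes, beyond the altered scale, pseudocount or floor, was not tested. Depth limits Jund, Fosl1 and Batf3.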
